A study of Homo sapiens with 7 samples.

Results

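DNA methylation is the transfer of a methyl group to cytosine, in mammalian cells mostly at CpG sites. UHRF1 recognises the hemimethylated sites that replication leaves behind and brings DNMT1 to them, so that a pattern is copied to the new strand. DNMT3A and DNMT3B set methyl groups at new sites, and DNMT3L is a partner without catalytic activity that is best known from germ cells. TET1, TET2 and TET3 are dioxygenases that need iron and 2-oxoglutarate and oxidise methylated cytosine, the first step of its removal. HCT116, a human colon carcinoma line, is much used to study this machinery, since DNMT1 and DNMT3B were first knocked out in human cells there.

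These 8 genes were followed on 4 single-colour microarrays, each hybridised with RNA of 1 culture of HCT116 that expresses H2B-GFP, a histone joined to a fluorescent protein. All 4 cultures were given bafilomycin A1, an inhibitor of the proton pump of lysosomes, at 10 nM for 30 h, and all arrays lay on 1 slide. The labels describe the line as diploid and give 10% serum. They list 3 untreated samples too, which are not analysed here, so every value below is a level or a spread within the treated group and none is a response to the drug. The members were found by gene name. The 8 names cover 18 of 50599 non-control probes, each 60 bases long and printed as 1 spot, and 8 of 36337 gene names.

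Of the writers, DNMT1, UHRF1, DNMT3A and DNMT3B were well above background on all 4 arrays, and DNMT3L on none. Of the erasers, TET1 and TET2 were well above background on all 4 arrays and TET3 on none. A gene counts here when at least 1 of its probes carries the scanner software's mark for a signal well above background on every array. With 6 of 8 genes the members stood at 75%, beside 52.5% of all gene names. A gene with more probes has more chances to count. The members had 18 probes for 8 names, against 50599 probes for 36337 names in all. By probe, 12 of 18 were marked on all 4 arrays, 4 on none and 2 on some, against 48.7% of all probes on all 4 arrays. None of the member spots was marked as an outlier (0 spots).

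Between 55.6% and 60.4% of the non-control spots of an array were well above background, and no spot was saturated (0 spots). Outlier spots were most frequent on replicate 3 with 2249, against 514 to 725 elsewhere. Over the 24633 probes well above background on all arrays, the Spearman correlation of a pair of arrays lay between 0.982 and 0.993, and no pair shared more than 1 identical spot value. The 308 negative control spots of each array had a median between -6.76 and -4.66 scanner units. Of 8 epithelial marker genes 7 were well above background on all arrays, among them EPCAM at a normalized log2 level of 8.84 ± 0.15 (SD, n = 4) and KRT8 at 5.39 ± 0.06 (SD, n = 4), while VIL1, an actin-bundling protein of the gut brush border, was so on none. Of 5 leukocyte markers 2 were well above background on all arrays, CD3E and, with 1 of its 5 probes, the surface phosphatase PTPRC, while LAPTM5 was so on none. The fibroblast list held 1 of 5 such genes, COL1A1, and COL1A2, COL3A1 and PDGFRB were on no array. Of 4 endothelial markers CDH5 and VWF were marked on all arrays, and PECAM1 and KDR on none.

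The sequences listed here come from part of the member probes, and differ in base composition in a way that the comparison of arrays below returns to. Where a probe lies within its transcript was not annotated here. Probes of a gene carry a letter, in order of brightness. They are given 5′ to 3′ as the files print them, with 30 of the 60 bases for all but TET1-a, since a probe may lie in an untranslated region. Capitals mark the hexamer AATAAA, the usual poly(A) signal, or the start codon.
DNMT1, bases 31 to 60: atttcttcaAATAAAtctctcctataaacc
UHRF1-a, bases 1 to 30: tgtattagggaagaatgagacaattttgtg
UHRF1-b, bases 1 to 30: ggcttaacttaaacaggtagtgtttcctcc
DNMT3A-a, bases 1 to 30: tgtgtaagggacatgggggcaaactgaggt
DNMT3A-b, bases 1 to 30: agggagacgagaacaccacacaagacattt
DNMT3B-a, bases 1 to 30: aactgtgccttgtttcaacagtttttgcta
DNMT3B-b, bases 1 to 30: atgggggacagctgtcacagaggccaatgg
TET1-a, bases 1 to 60: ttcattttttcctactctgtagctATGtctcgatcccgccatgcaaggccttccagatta
TET1-b, bases 31 to 60: tcatgaagcaaggaAATAAAtttgtttgaa
TET2-b, bases 1 to 30: tcaagacttgccgacaaaggaaactagaag
TET2-d, bases 1 to 30: ggcgtagacctgtttaaaaaatAATAAAcc
TET1-a holds an ATG, known as the start codon of TET1 from general knowledge and not from an annotation used here, with 24 bases before it and 33 after it. AATAAA stood in 3 of the 18 member probes, those of DNMT1, TET1-b and TET2-d, which is 16.7% beside 7.88% of all probes; on the opposite strand it stood in none of the 18 (0 probes), against 3.74% of all probes. In the DNMT1 probe 46 of 60 bases were A or T, against 27 in DNMT3B-b.

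DNMT1, the maintenance methyltransferase, was read by 1 probe at chr19:10244023-10244082 (GRCh37, minus strand), which the files assign to transcript variant 1. Its background-subtracted signal was 1251, 1321, 1764 and 1083 scanner units on replicates 1 to 4, with an error estimate of the software of 125, 132, 176 and 108. After log2 transformation and subtraction of the median of the array, the level was 4.02, 4.24, 4.65 and 4.09, a mean of 4.25 ± 0.28 (SD, n = 4). Replicate 3 was the highest and replicate 1 the lowest, and the span between them was 1.55-fold. Among the other 3 arrays the span was 1.16-fold.

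UHRF1, the ubiquitin ligase that guides DNMT1, had 2 probes on chromosome 19, both assigned to variant 2. UHRF1-a at chr19:4962065-4962124 (plus strand) measured 4.03, 4.39, 4.51 and 4.34, a mean of 4.32 ± 0.21 (SD, n = 4). UHRF1-b at chr19:4960895-4960954 (plus strand) measured 1.37, 1.56, 2.68 and 1.77, a mean of 1.84 ± 0.58 (SD, n = 4). Both probes were lowest on replicate 1 and highest on replicate 3, yet they spread unequally, by 1.401-fold and 2.48-fold. The SD of UHRF1-b was larger than that of 97.9% of all detected probes, that is, probes well above background on all 4 arrays. Without replicate 3 its span was 1.33-fold. The median over both probes gave UHRF1 2.70, 2.97, 3.60 and 3.06.

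DNMT3A, a de novo methyltransferase, had 2 detected probes on chromosome 2, both on the minus strand and assigned to variant 1. DNMT3A-a at chr2:25457095-25457154 measured 1.79, 2.54, 2.40 and 1.86, a mean of 2.15 ± 0.38 (SD, n = 4). DNMT3A-b at chr2:25456415-25456474 measured 1.93, 2.27, 2.20 and 2.00, a mean of 2.10 ± 0.16 (SD, n = 4). Both probes put the arrays in the same order, with replicate 2 the highest, followed by replicates 3, 4 and 1, while the spans were 1.68-fold and 1.26-fold. The remaining probe, DNMT3A-c at chr2:25504394-25504453, is assigned to variant 4 and was not well above background on any array. Its signals were 11.7, 8.3, 20.2 and 10.3 scanner units, below the lowest signal marked well above background, which was between 20.8 and 22.3 on the 4 arrays.

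DNMT3B, the other de novo methyltransferase, was read by DNMT3B-a at chr20:31397064-31397123 (plus strand, variant 6) with 3.45, 3.70, 4.12 and 3.60, a mean of 3.72 ± 0.29 (SD, n = 4). Replicate 3 was again the highest and replicate 1 the lowest, 1.60-fold apart. DNMT3B-b at chr20:31384813-31384872, which the files assign to an Ensembl transcript, gave signals of 2.8, 5.0, -0.8 and 33.0 scanner units and was well above background on replicate 4 alone. Since a signal at or below 0 has no logarithm, the median over the probes of DNMT3B rested on DNMT3B-a alone on replicate 3. That median was -0.66, -0.06, 4.12 and 1.33, a span of 27.4-fold between replicates 1 and 3. The change in the number of probes enters that span, but not the distances between replicates 1, 2 and 4. There both probes count, and DNMT3B-b ran from 2.8 to 33.0 scanner units. With detected probes only, DNMT3B spanned 1.60-fold.

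DNMT3L at chr21:45666270-45666329 (minus strand) gave signals of 9.4, 7.3, 3.2 and -4.3 scanner units, none of them well above background. Only a bound can be given for this gene, the lowest signal marked well above background on these arrays. The 95th percentile of the negative control spots lay between 1.24 and 4.08, so the DNMT3L spots of replicates 1 and 2 were above that percentile on every array and still below the mark.

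TET1, the eraser known best from embryonic stem cells, was well above background with all 3 of its probes, all on the plus strand of chromosome 10. TET1-a at chr10:70332072-70332131 measured 5.74, 5.71, 6.38 and 5.81, a mean of 5.91 ± 0.32 (SD, n = 4). Replicate 3 stood apart from the other 3 arrays, which lay within 1.07-fold of each other, as measured by Dixon's ratio of the gap to the whole range. That held for this 1 of 12 detected member probes and for none of the 6 detected member genes (0 genes), beside 7.3% of all detected probes and 8.48% of detected genes. TET1-b at chr10:70454164-70454223 measured 0.88, 1.02, 1.30 and 0.97, a mean of 1.04 ± 0.18 (SD, n = 4). TET1-c at chr10:70453516-70453575 measured -1.01, -0.74, -0.24 and -0.62, a mean of -0.65 ± 0.32 (SD, n = 4). All 3 probes were highest on replicate 3, with spans of 1.59-fold, 1.34-fold and 1.71-fold. Probes differ in brightness for the same amount of RNA, so the distance between TET1-a and TET1-c was not read as a difference between the ends of the transcript.

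TET2, the family member most often mutated in blood cancers, had 3 detected probes on the plus strand of chromosome 4, all assigned to variant 1, and these did not order the arrays alike. TET2-a at chr4:106200570-106200629 measured 2.08, 2.25, 2.88 and 2.13, a mean of 2.33 ± 0.37 (SD, n = 4), with replicate 3 the highest. TET2-b at chr4:106193920-106193979 measured 2.16, 0.69, 1.18 and 0.61, a mean of 1.16 ± 0.72 (SD, n = 4), with replicate 1 the highest. TET2-c at chr4:106199618-106199677 measured 0.00, 0.17, -0.16 and -0.20, a mean of -0.05 ± 0.17 (SD, n = 4), with replicate 2 the highest. The signal of TET2-b was 345 scanner units on replicate 1 and 97, 113 and 159 on the others, and its SD was larger than that of 99.1% of all detected probes. Its span of 2.94-fold did not narrow without replicate 3. TET2-d at chr4:106163842-106163901, assigned to variant 2, gave 23.3, 20.0, 32.0 and 17.3 scanner units and was well above background on replicates 1 and 3 only. Over all 4 probes the median was 1.04, 0.43, 0.51 and 0.20, a span of 1.78-fold, and over the 3 detected probes the span was 2.77-fold. Over the detected probes that median was the value of TET2-a on replicate 1 and of TET2-b on replicates 2 to 4. Since probes differ in brightness, 2.77-fold is not a change of 1 probe.

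TET3, the eraser of the fertilised egg, had 2 probes on the plus strand of chromosome 2 and neither was well above background on any array. TET3-a at chr2:74328560-74328619 gave 2.6, 10.0, 11.3 and 4.9 scanner units. TET3-b at chr2:74329639-74329698 gave -0.1, -1.6, -1.0 and -1.3 scanner units, so no log2 level exists for it.

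**Figure D1:**
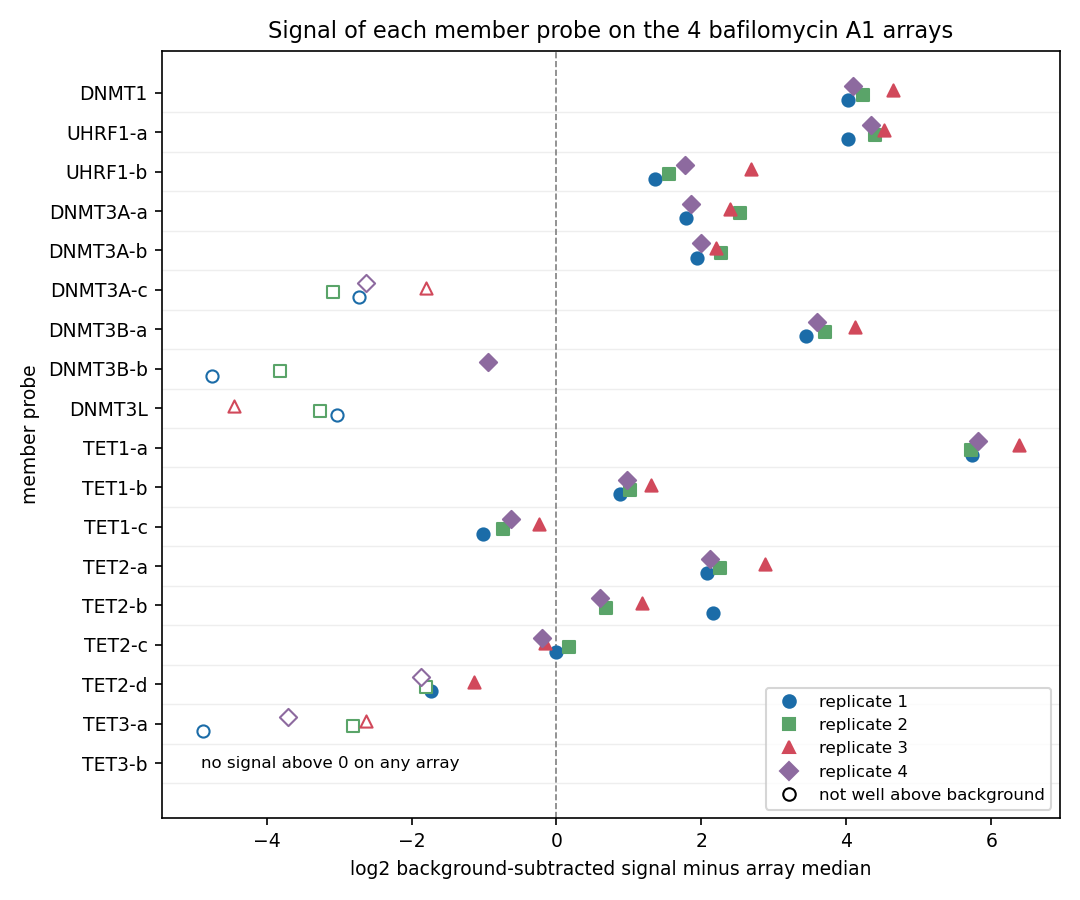
Normalized log2 signal (log2 background-subtracted signal minus the array median) of the 18 member probes on the 4 bafilomycin A1 arrays; each row is a probe, each symbol an array, and open symbols are not well above background. The red triangles of replicate 3 are furthest right in 8 of the 12 probes detected on all arrays. TET2-b has replicate 1 furthest right, and the probes of DNMT3L, TET3 and DNMT3A-c have open symbols only.

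The median SD of the 12 detected member probes between replicates was 0.30, with a range from 0.16 to 0.72, beside 0.20 over all detected probes. DNMT3A-b, TET1-b and TET2-c lay below that median of all detected probes and the other 9 above it, UHRF1-a only just. The study used 1.4-fold as its limit for the ratio of aneuploid to diploid cells. Here it is set against another measure, the highest over the lowest of 4 arrays of 1 condition. A span of more than 1.4-fold was reached by 9 of 12 member probes, against 43.5% of all detected probes. UHRF1-a lay just inside that limit at 1.401-fold, while TET1-b at 1.34-fold lay below it. At the level of genes 4 of 6 members passed it, against 46.4% of detected genes, and with detected probes only 5 of 6, against 40.1%. DNMT3A changed sides here, from 1.397-fold to 1.46-fold.

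Most of this spread ran between replicates 1 and 3. Replicate 3 was the highest array for 8 of 12 member probes, replicate 2 for 3 and replicate 1 for 1. All detected probes were highest on replicate 3 in 50.4% of cases. Replicate 1 was the lowest for 9 of 12 member probes, against 27.9% of all detected probes. These were the probes of DNMT1, UHRF1, DNMT3A and DNMT3B, TET1-b, TET1-c and TET2-a. The median deviation of the member probes from their own mean was -0.24, -0.02, 0.33 and -0.11 on replicates 1 to 4, beside -0.03, 0.02, 0.11 and -0.10 over all detected probes. Without replicate 3 only DNMT3A-a and TET2-b spanned more than 1.4-fold, 2 of 12 member probes, beside 16.0% of all detected probes, so the count then lay near the general share.

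The GC content of the probes moved with these deviations. The detected member probes held between 23.3% and 45% GC with a median of 38.3%, while the median of all detected probes was 45%. Over all detected probes of at most 30% GC the median deviation on replicate 3 was 0.32, and between 30% and 35% GC it was 0.27. Between 40% and 45% GC it was 0.09, and above 60% GC it was -0.08. In the first of these classes 84.5% of probes were highest on replicate 3, in the last 18.5%. Within the GC range of the detected member probes, 60.2% of all detected probes were highest on replicate 3 and 35.3% were lowest on replicate 1.

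When the median deviation of all detected probes within 2 GC bases was taken off on each array, the 2 counts of member probes parted. Then 5 of 12 member probes were highest on replicate 3, against 35.5% of all detected probes, and the median deviation of the members there was 0.09. DNMT1, whose probe had the lowest GC content, came to an SD of 0.08 in place of 0.28, and TET1-b to 0.04 in place of 0.18. UHRF1-b kept a deviation of 0.62 on replicate 3, TET1-a of 0.38 and TET2-a of 0.30. Replicate 1 remained the lowest array for 9 of 12 member probes, the same count as before, against 25.6% of all detected probes. The median deviation of the members on replicate 1 was then -0.14 in place of -0.24. For TET1-b the distance was small, with -0.04 on replicate 1 and -0.03 on replicate 2. The spans of UHRF1-b, DNMT3A-a, TET1-a, TET2-b and TET2-c were then over 1.4-fold, 5 of 12 probes, beside 32.7% of all detected probes. The comparison by GC content was chosen after the values had been seen, and the part of GC content in the spread of the members was not tested.

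**Figure D2:**
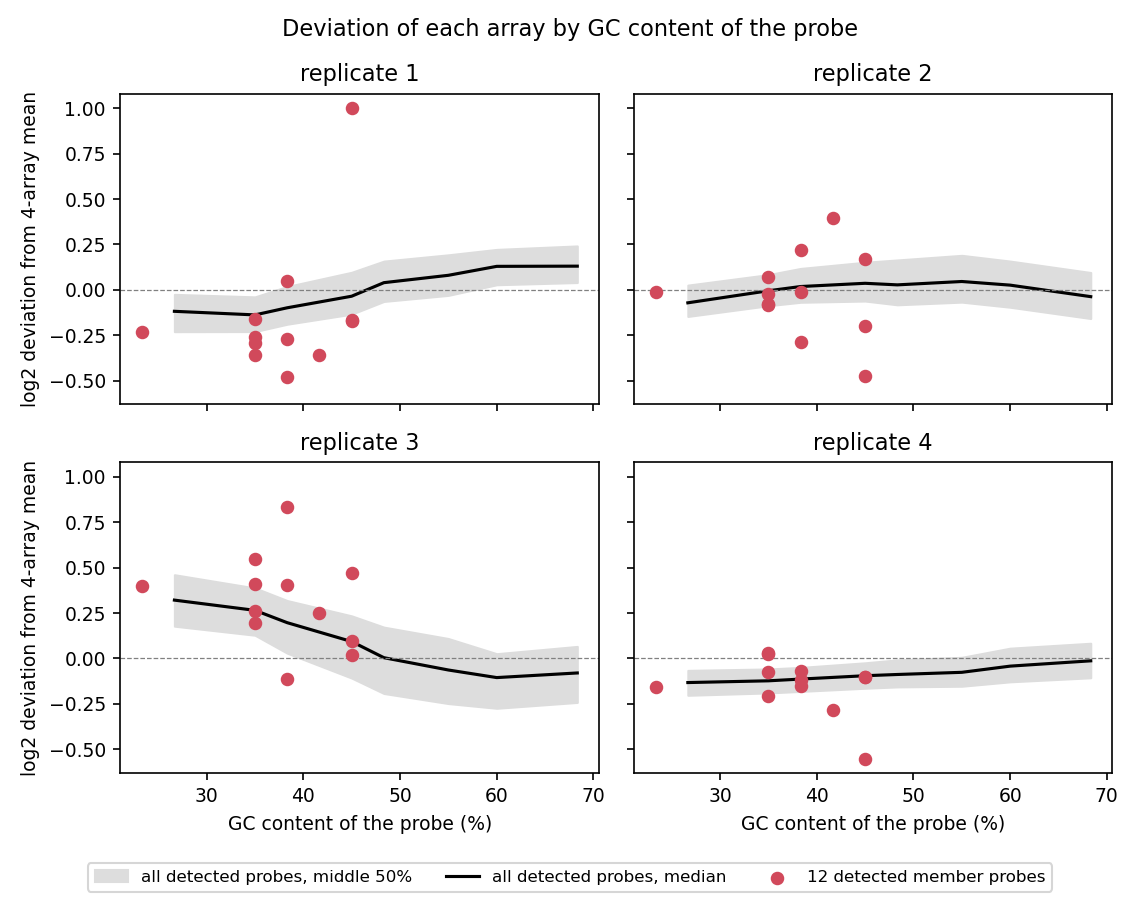
Deviation of a probe from its mean over the 4 arrays (log2 units) against the GC content of the probe (%), 1 panel per array; red points are the 12 detected member probes, the line is the median and the band the middle 50% of all detected probes per GC class. On replicate 3 the line runs from 0.32 in the lowest class to -0.08 in the highest, and the member probes lie at 45% GC or below; on replicate 1 most red points lie below 0, while TET2-b lies at 1.00.

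The spread of single genes therefore depended on how the signals were treated. The median SD of all detected genes was 0.208. It fell to 0.112 after normexp background correction and quantile normalization, and to 0.146 without replicate 3. For DNMT1 the SD was 0.28, and 0.16 after normexp background correction and quantile normalization, and 0.11 without replicate 3. For UHRF1 it was 0.38, 0.26 and 0.19, and for TET1 0.18, 0.10 and 0.07 in the same order. For DNMT3B it was 2.13 over all probes, 0.29 over detected probes and 0.15 after normexp and quantile normalization. For TET2 it was 0.35 over all probes, 0.67 over detected probes, 0.22 after normexp and quantile normalization and 0.16 without replicate 1. The 0.67 rests on a median that changed probe between arrays, and with the mean over all its probes the SD of TET2 was 0.25. For DNMT3A it was 0.24, 0.27 over detected probes and 0.15 after normexp and quantile normalization.

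**Figure D3:**
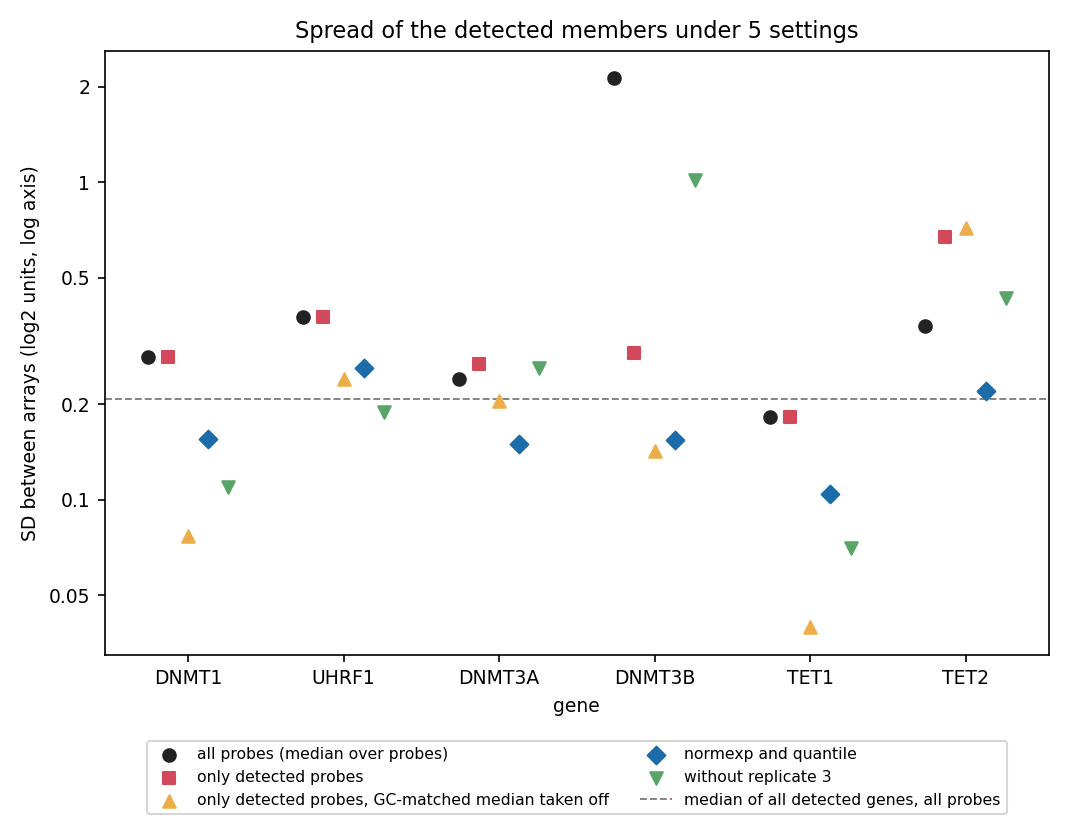
SD between arrays (log2 units, log axis) of the 6 detected member genes under 5 settings, with a dashed line at 0.208, the median SD of all detected genes over all probes, which itself differs under the other settings. DNMT1, DNMT3A and DNMT3B lie below the line once GC-matched medians are taken off, TET1 lies below it in all 5 settings shown and TET2 above it in all 5. With GC-matched medians taken off the median of all detected genes is 0.157, and DNMT3A at 0.205 lies above that value.

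The lists of related genes, 90 genes in 10 groups of which 89 were found on the array, set these values beside the rest of the pathway. A list's spread is given over detected probes, for which the median SD of all detected genes was 0.193. Beside the counts of a list stand 52.5% of all gene names detected and, over detected probes, 40.1% of detected genes over 1.4-fold. With arrays of 1 condition, the counts describe the treated cells only.

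Of the maintenance partners 6 of 7 were well above background on all arrays, with a median SD of 0.22 and 4 of 6 over 1.4-fold, against 40.1% of detected genes. PCNA, the replication clamp that also binds DNMT1, measured 6.47, 6.83, 7.14 and 6.78 and had the largest span of the list, 1.59-fold. HELLS, a chromatin remodeller needed for methylation, measured 1.91, 2.34, 1.97 and 1.93 over its probes. Its activator CDCA7 kept within 1.08-fold at 2.71 ± 0.05 (SD, n = 4). UHRF2, the paralog of UHRF1, measured 2.03, 2.42, 2.05 and 1.94 and was only just over 1.4-fold, at 1.401-fold. USP7, the ubiquitin protease that acts on DNMT1 and UHRF1, measured 0.59, 0.77, 0.52 and 0.22. In 5 of the 6 detected partners replicate 2 was the highest, against 24.4% of detected genes. Of the 6 detected members only DNMT3A shared that highest array. The trait was not particular to the partners. Replicate 2 was also the highest for 5 of 9 detected genes listed for de novo targeting and 4 of 9 base excision genes. It was so for 5 of 10 genes of the methyl donor cycle, 6 of 11 of 2-oxoglutarate metabolism and 6 of 12 of S phase. Fewer were so among the listed readers (2 of 8), the TET partners (1 of 3) and the germline genes (1 of 4). DPPA3, which binds UHRF1 in the egg, was on no array.

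Of the 10 genes listed for de novo targeting 9 were well above background on all arrays. Their median SD was 0.22, and 4 of 9 were over 1.4-fold. TRIM28, the corepressor of zinc finger proteins, stood at 7.45 ± 0.08 (SD, n = 4), and EHMT2, a histone H3 lysine methyltransferase, at 4.16 ± 0.22 (SD, n = 4). Its partner EHMT1 had the largest span, 3.07-fold, with 1.67, 2.15, 0.53 and 1.06. TRDMT1, the DNMT2 protein that methylates transfer RNA, was well above background with 1 of 3 probes, which spanned 1.35-fold.

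All 8 genes listed as readers of methylated CpG were well above background on all arrays. Their median SD was 0.24, and 4 of 8 were over 1.4-fold. MBD4, a reader with glycosylase activity, measured 2.45, 2.54, 2.96 and 2.26. Replicate 3 was the highest for 5 of the 8 listed genes, against 49.7% of detected genes. MBD2 was detected with 1 of its 2 probes, which measured 6.30, 6.52, 6.78 and 6.41, whereas the median over both of its probes spanned 119.5-fold.

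Downstream of the TET proteins, 9 of 10 base excision genes were well above background on all arrays, with a median SD of 0.20 and 2 of 9 over 1.4-fold. TDG, the glycosylase that removes oxidised methylcytosine, measured 2.74, 3.14, 3.09 and 2.70. APEX1, the endonuclease of the next step, had the largest span of the list, 1.92-fold, with 4.01, 4.37, 3.43 and 3.79. GADD45A, a stress-induced adaptor, measured 6.31, 6.72, 6.31 and 6.25. Of the 4 TET partners 3 were well above background on all arrays, and 2 of 3 were over 1.4-fold. OGT, which binds TET proteins and modifies them with a sugar, measured 5.44, 5.72, 6.08 and 5.55, DCAF1 had the largest span at 1.61-fold, and CXXC4 was on no array.

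The next lists hold enzymes of the methyl donor cycle and of the metabolism of the TET cosubstrate, whose amounts were not measured. Of the methyl donor cycle 10 of 11 genes were well above background on all arrays. Their median SD was 0.20, and 4 of 10 were over 1.4-fold. MAT2A, the S-adenosylmethionine synthetase of most tissues, stood at 5.12 ± 0.14 (SD, n = 4). MAT1A, its liver counterpart, measured 0.04, 0.09, 0.49 and 2.07, with replicate 4 the highest and a span of 4.08-fold, the largest over detected probes. AHCY, which clears S-adenosylhomocysteine, the product that inhibits methyltransferases, measured 6.35, 6.74, 5.71 and 6.16. MTRR had 1 detected probe of 4, and its span was 1.76-fold with that probe and 14.9-fold over all of them. GNMT, a liver enzyme of the cycle, was on no array. All 11 genes of 2-oxoglutarate and tricarboxylic acid metabolism were well above background. Their median SD was 0.15, and 4 of 11 were over 1.4-fold. IDH1 measured 6.48, 6.47, 6.76 and 6.42, and IDH2 3.99, 4.22, 3.57 and 3.74, the largest span of the list over detected probes at 1.57-fold.

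Genes commonly silenced by methylation were mostly not well above background. Of 11 germline genes found on the array 4 were so on all arrays, SYCP1, MAGEA1, MAGEA4 and MAGEC1, and 6 on none, including ASZ1, DDX4, HORMAD1, MAEL and STK31. MAGEA1, a cancer-testis antigen, measured 0.21, 0.40, 0.78 and 0.42. DAZL, an RNA-binding protein of germ cells, was marked on 2 arrays. MAGEC1 spanned 1.41-fold with its detected probe and 10.4-fold over both. With detected probes 4 of 4 detected germline genes were over 1.4-fold. Of 5 genes known as methylated in HCT116, SFRP1, SFRP2, TIMP3 and GATA5 were on no array, and GATA4 was well above background on all arrays with 1 of its 4 probes. Methylation itself was not measured, so no level here was read as its result.

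Genes of S phase, with which DNMT1 and UHRF1 are known to be expressed, were all well above background, 12 of 12. Their median SD was 0.19, and 5 of 12 were over 1.4-fold. Their mean deviation over detected probes was -0.16, 0.14, 0.07 and -0.06 on replicates 1 to 4, and that of the 6 detected members was -0.06, -0.05, 0.30 and -0.18. Replicate 1 was the lowest array for 8 of 12 S-phase genes and 5 of 6 members, beside 27.1% of detected genes. TET2 was the member with another lowest array. Its median over detected probes was highest on replicate 1, at 2.08 against a mean of 1.14. That median is the value of TET2-a on replicate 1 and of TET2-b on replicates 2 to 4. By itself TET2-a was lowest on replicate 1 and TET2-b highest. The high median of TET2 raised the members' mean deviation on replicate 1, so that mean does not describe the other 5 members. MCM2 measured 5.98, 6.20, 5.83 and 5.83, and MCM7 had the largest span at 1.81-fold, so not every S-phase gene was lowest there. The epithelial markers were lowest on replicate 1 in 5 of 7 cases as well, CDH1 with 5.52, 5.88, 6.22 and 5.61. The part of the share of cells in S phase in the low values of replicate 1 was not tested, and in RNA of whole cultures a smaller share of such cells and less RNA per cell cannot be told apart.

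**Figure D4:**
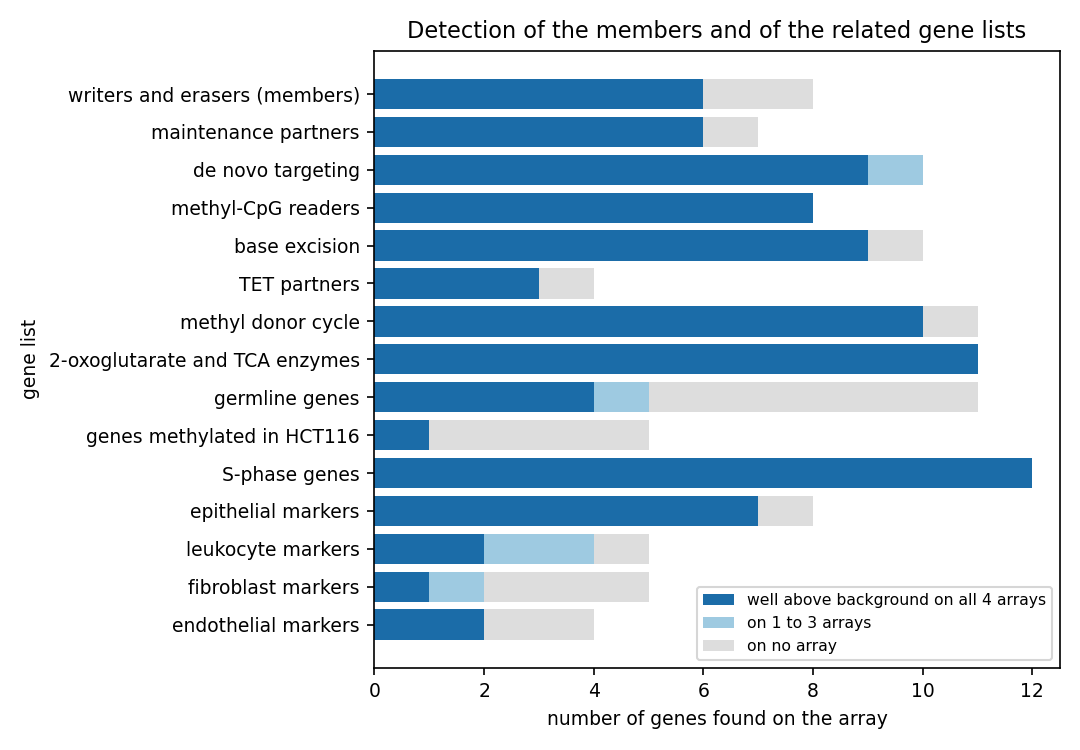
Number of genes found on the array (horizontal axis) in each gene list, divided into those well above background on all 4 arrays, on 1 to 3 arrays and on none. The 8 listed readers, the 11 enzymes of 2-oxoglutarate metabolism and the 12 S-phase genes are detected throughout. The members are detected with 6 of 8, and the germline genes with 4 of 11.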

How the data were processed

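The authors deposited linear, background-subtracted spot intensities of 4 arrays as Agilent Feature Extraction 10.7.3.1 (per the labels) wrote them, not normalized across arrays. A p-value per spot against background, error estimates, and marks for spots that are outlying or well above background stand in the same deposited tables. Probe coordinates are those of GRCh37; exon and UTR annotation of that build was not used here. The study's methods give 5% serum where the labels give 10%.

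Control and outlier spots were left out, spots of a probe averaged, signals at or below 0 dropped on the array concerned, and log2 signals centred on the median of the array over non-control probes; a gene took the median of its probes, as in the study's methods. For a probe to count on an array, over 50% of its spots had to be marked well above background. Single spots, not counts, carry the values, so the number of arrays limits the precision. With 1 group no test between conditions was possible; the labels call the 4 samples replicates of 1 treatment and the series text calls them biological. A Dixon ratio above the 95% critical value for 4 values marked 1 array as apart, and the SD and this ratio were tested on simulated data. Alternatives were the software's processed signal centred on the 75th percentile, normexp with an offset of 50 in limma 3.58.1 with quantile normalization, other detection rules, outlier spots kept, detected or positive probes only, the mean over probes, and leaving out each array.

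Members and lists were chosen with earlier results of these data known. Genes named are the 8 members with every probe and, of each list, those on no array (at most 5), the gene with the largest span and a fixed set; SYCP1, MAGEA4, CD3E, VWF, SHMT2, IDH3A and FH beyond that rule were named after their values were seen. Some genes of the lists are not reported here. NSD2 and DCAF1 were found by older symbols from a GRCh38.p14 gene table. Python 3.11.15, numpy 2.4.6, pandas 2.3.3, scipy 1.17.1, matplotlib 3.10.9 and R 4.3.3 were used.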

Additional observations from a re-analysis of the deposited data

Results flagged for a closer look

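In some values 1 of the 4 arrays lay apart from the other 3 by more than Dixon's 95% critical value. This held for 1 of 15 member probes with 4 values and for none of the member genes (0 of 7 over all probes, 0 of 6 over detected probes). Of the list genes it held for 7 of 95 over all probes and 5 of 85 over detected probes. Chance alone marks about 5% of such values, and 8.48% of all detected genes and 7.3% of all detected probes were marked. The TET1-a probe had replicate 3 apart with a ratio of 0.855. GADD45A (ratio 0.864) and FH (0.859) had replicate 2 apart, and SHMT2 (0.904) and IDH3A (0.946) replicate 3. For HELLS replicate 2 was apart over both probes (0.868) but not with the detected probe alone (0.739), and for MAGEC1 replicate 4 was apart over both probes (0.853) but not with the detected probe alone (0.690). GATA4 had replicate 3 apart with its detected probe alone (0.843). GNMT had replicate 3 apart (0.908), at signals that were not well above background on any array.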

How the results depend on the processing

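The count of 6 detected members held under every detection rule tried except that asking for over 50% of the probes of a gene, which gave 5 and lost DNMT3B; DNMT3L and TET3 passed none. The share of gene names detected, 52.5%, was 65.4% with the software's positive and significant mark, 45.2% with over 50% of probes, 56.3% with at least 3 of 4 arrays, 54.2% with outlier spots kept and 52.7% to 54.1% with 1 array left out. Members spanning more than 1.4-fold numbered 4 at first, 1 after normexp and quantile normalization and 2 with GC-matched medians taken off. They numbered 5 with detected probes only, 6 with the mean over probes and 2 to 4 with 1 array left out. Member probes over that limit numbered 9 at first. They numbered 5 after normexp and quantile normalization, 5 with GC-matched medians taken off and 2 to 9 with 1 array left out. Of all detected genes 46.4% passed that limit, against 39.1% with the processed signal, 15.5% with normexp and quantile normalization, 45.5% with outlier spots kept, 40.1% with detected probes only, 42.9% with positive probes only, 30.2% with GC-matched medians taken off and 21.9% to 39.5% with 1 array left out. The median SD of all detected genes, 0.208, was 0.112 after normexp and quantile normalization and 0.157 with GC-matched medians taken off. It was 0.146 to 0.215 with 1 array left out. Member probes highest on replicate 3 numbered 5 in place of 8 with GC-matched medians taken off, 7 or 8 under other normalizations and 8 to 10 with another array left out, where 51.6% to 58.0% of all detected probes were so; those lowest on replicate 1 numbered 9 or 10 under all alternatives run, while the share of all detected probes moved between 25.6% and 44.9%. The GC-matched alternative and all alternatives for probe counts were chosen after seeing the data. Of the other values (levels and SDs of members, and median SDs of lists), 182 stayed within their own spread and 82 did not, among them all 6 member levels with the processed signal, which is centred on another percentile; the cause of the rest was not tested. No paired analysis was possible because only 1 of the groups that share replicate numbers has values here.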
